A study of Mus musculus with 8 samples.

Results

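The genes described here encode the subunits of the proteasome, its activating caps, its inhibitor and the factors that help to assemble it. They were chosen by gene symbol: every gene whose symbol starts with Psma, Psmb, Psmc, Psmd, Psme, Psmf or Psmg and which had a probe set assigned to that symbol alone. This gave 49 genes of 18193 on the array, read by 103 probe sets, and 47 of them passed the filter on low signals among 13276 genes tested. Of the 49 genes, 47 are proteasome genes. Psmc3ip, which encodes a partner of meiotic recombinases, and Psme3ip1, which encodes a protein that binds the cap protein of Psme3, share the prefix but encode no part of the proteasome. Psme2 and Psme2b share a probe set that names both, so neither is given a value.

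The proteasome is the barrel-shaped protease that degrades proteins tagged with ubiquitin in the cytosol and nucleus. Its core is a stack of alpha and beta rings, and some of the beta subunits carry the cutting sites. A regulatory particle, made of a base with a ring of ATPases and of a lid that removes ubiquitin, feeds proteins into the core. Other caps can take its place, and in immune cells inducible beta subunits replace the usual catalytic ones. Early embryos use the proteasome to clear proteins inherited from the egg.

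RNA of whole mouse embryos was measured on 8 single-colour arrays, 4 of 8-cell embryos (embryonic day 2.5, 66 h after the hormone hCG) and 4 of blastocysts (day 4.5, 120 h after hCG). All embryos were wild type, of the strain B6D2F1, and had been collected as zygotes and grown in KSOM medium. The labels do not state that replicate arrays hold different embryos; p-values then cover only the spread seen here, and that spread may be technical. Signals are on a linear scale that the authors had set to a common mean on every array, so a rise or fall is read against the rest of that array. Each difference is the blastocyst value less the 8-cell value in log2(signal + 16), given with its standard error (SE), and each mean has the SD of 4 arrays. The adjusted p-values come from limma (Benjamini-Hochberg, over all 13276 genes). In whole embryos, fewer cells of a type and less RNA per cell cannot be told apart.

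Correlations over the genes tested were 0.977 to 0.988 within a stage and 0.752 to 0.780 between stages. The stage labels fitted the trophectoderm and early cleavage markers. In blastocysts 6 of 6 trophectoderm genes, among them Cdx2 and Krt8, were higher. All 4 early cleavage genes with a probe set, among them Klf17, were lower. Of 6 inner cell mass genes 3 were higher and 3 lower, so that list gave no single direction. Scaling the arrays to the bacterial spike-in controls in place of the deposited scale moved the median difference of all genes up by 0.32, so small falls below depend on the scale.

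Most proteasome genes differed little between the stages. Of the 47 members tested, 17 were higher in blastocysts, 16 were lower and 14 did not pass. Without Psmc3ip and Psme3ip1, 45 proteasome genes were tested, of which 17 were higher, 15 lower and 13 did not pass. Over all genes tested 37.5% were higher, 34.2% lower and 71.7% called in either direction, close to the members' 36.2% higher and 34.0% lower. With spike-in scaling 20 members were higher and 4 lower, against 42.3% and 22.4% of all genes. The median difference of the members was 0.03 and that of all genes tested 0.02. The differences were smaller than those of most genes: 39 of 47 members (83.0%) stayed within 2-fold, against 54.1% of all genes tested. Since 38 of the members lay among the 3319 brightest genes tested, those are the closer background. Among them 11 members (28.9%) were higher and 14 (36.8%) lower, against 34.0% and 45.3% of the 3319 genes. Within 2-fold stayed 36 of 38 members (94.7%), against 59.4% of the 3319 genes. Brightness was not matched further within the 3319 genes. Psmc2 and Psma6, among the brightest members, both lay at a mean percentile of 99.7 of the 8-cell arrays. These shares are descriptions without a test, and the part of brightness in them was not tested.

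**Figure D1:**
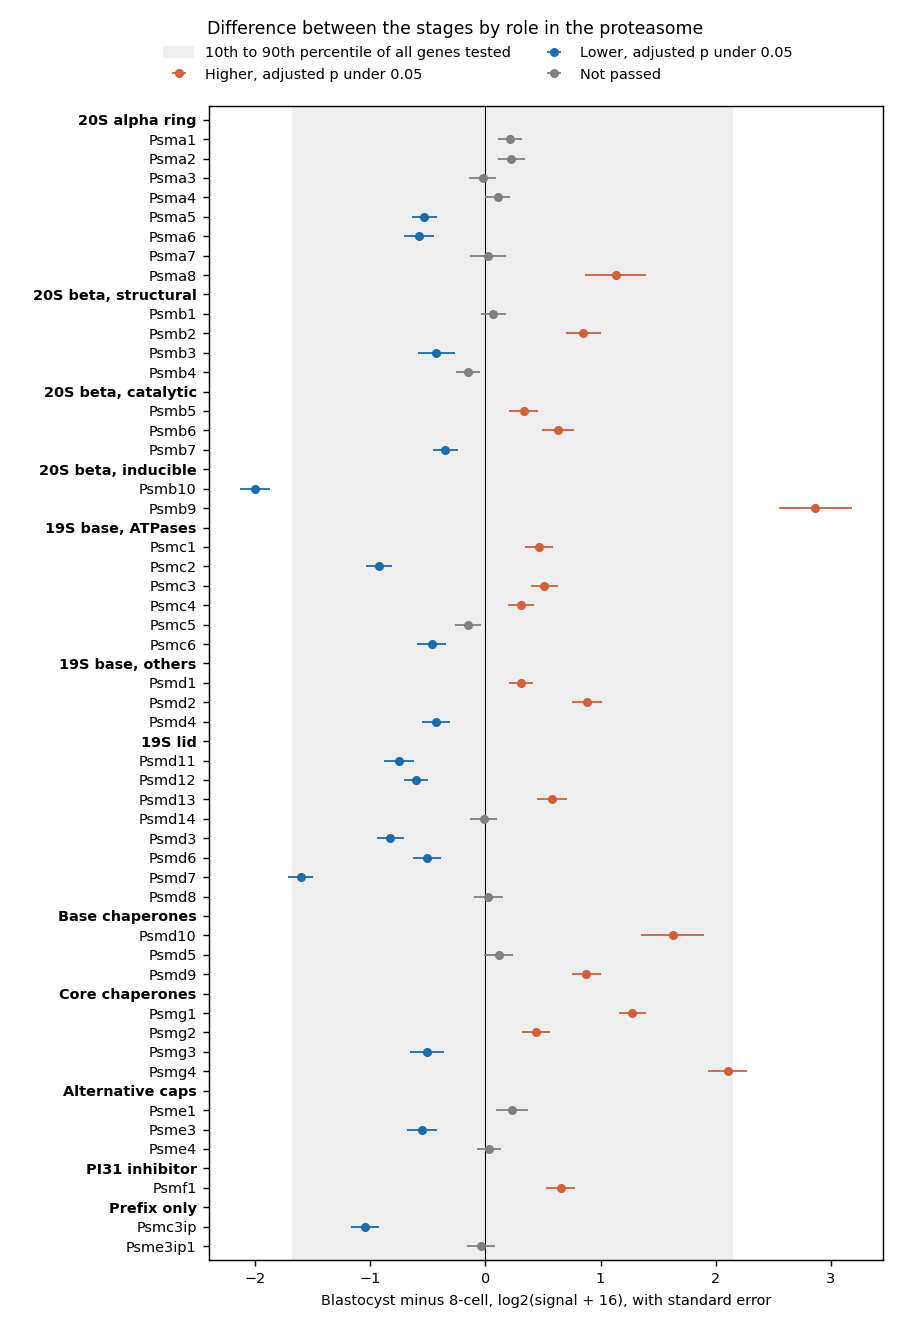
Difference between the stages (blastocyst minus 8-cell, log2(signal + 16)) with its standard error for the 47 members tested, ordered by role, coloured by the limma call, over the 10th to 90th percentile of all genes tested. Most points lie within 1 unit of 0, and Psmb9 and Psmb10 lie farthest out on opposite sides. Of 8 lid genes 5 are called lower (1 with spike-in scaling), against 34.2% of all genes tested (22.4% with spike-in scaling).

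A change of at least 2-fold was called for 5 higher members, Psmb9, Psmg4, Psmd10, Psmg1 and Psma8, and for 3 lower members, Psmb10, Psmd7 and Psmc3ip. Over all genes tested the shares were 25.4% and 20.4%. The values of the stages did not overlap and were higher in blastocysts for 17 members and lower for 16, against 35.3% and 31.5% of all genes (66.8% in either direction). By role, the core held 5 higher and 5 lower calls among 17 genes, and base and lid together 6 higher and 8 lower among 17. The alternative caps held 1 lower call among 3 genes. Of all genes tested 37.5% were called higher and 34.2% lower, and the counts by role below stand beside the same shares.

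The alpha ring forms the gate of the core. Of its 8 members 1 was higher, 2 were lower and 5 did not pass, with a median of 0.07. Psma6, the lowest, gave 22262, 21667, 25349 and 18169 in 8-cell embryos and 14687, 15351, 13438 and 14872 in blastocysts. Every blastocyst array lay below every 8-cell array (-0.57, SE 0.13, 1.49-fold lower, adjusted p = 0.00281), and its 3 other probe sets were called lower as well. Psma5 fell by 0.53 (SE 0.11, adjusted p = 0.00144) on its brightest probe set, while another of its probe sets gave -0.01 (adjusted p = 0.971), and their mean did not pass. With spike-in scaling neither Psma5 nor Psma6 passed. Psma1, Psma2, Psma3, Psma4 and Psma7 lay between -0.03 and 0.23 on their brightest probe sets and did not pass. A dim probe set of Psma3, at 82.8 and 48.7 in the stages, was called lower (-0.60, adjusted p = 0.00800).

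Psma8 encodes an alpha subunit known from the testis, where it takes the place of the Psma7 product. Its signals were low, at 25.9, 31.2, 49.5 and 49.7 in 8-cell embryos and 152, 139, 73.9 and 67.3 in blastocysts. The stages did not overlap (1.13, SE 0.27, adjusted p = 0.00374), but 2 of 4 8-cell arrays lay under the 40th percentile of the array, so the size depends on the added 16 (1.41 with 1 added and 0.71 with 64 added). Psma7 itself was at 3308 ± 525 and 3354 ± 449 (0.02, SE 0.16, adjusted p = 0.900), but its other probe set, at 2171 and 3071, was called higher (0.50, adjusted p = 0.0329).

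Among the structural beta subunits, which carry no cutting site, 1 was higher, 1 lower and 2 did not pass. Psmb2 rose from 2728, 2934, 2542 and 1945 in 8-cell embryos to 4579, 4836, 3958 and 4841 in blastocysts (0.85, SE 0.15, adjusted p = 0.000653). All blastocyst arrays were above all 8-cell arrays. Psmb3 went from 8395, 8435, 9032 and 6005 to 6511, 6325, 4960 and 5710 (-0.43, SE 0.16, adjusted p = 0.0357), with overlapping arrays. Its call was weak: a second probe set was called in the opposite direction (0.72, adjusted p = 0.00218), and the call was lost when 8-cell replicate 1, 2 or 3 or blastocyst replicate 3 or 4 was left out (adjusted p up to 0.0987). Psmb1 (0.07) and Psmb4 (-0.15) did not pass.

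The catalytic beta subunits did not move together. Psmb5, which carries the chymotrypsin-like site, gave 8989, 9001, 10376 and 9172 in 8-cell embryos and 12278, 13177, 10020 and 11904 in blastocysts. Blastocyst replicate 3 lay within the 8-cell range (0.33, SE 0.12, adjusted p = 0.0367), and the call was lost in the fits without 8-cell replicate 1, 2 or 4 or blastocyst replicate 1, 2 or 4 (adjusted p up to 0.103). Psmb6, which carries the caspase-like site, was higher without overlap. It went from 4346, 4081, 3822 and 3255 to 7003, 5901, 5310 and 5759 (0.63, SE 0.14, adjusted p = 0.00244). Psmb7, which carries the trypsin-like site, was lower without overlap, from 9707, 9891, 10848 and 11034 to 7973, 8744, 7989 and 7842 (-0.35, SE 0.11, adjusted p = 0.0154). This fall did not pass with quantile, median or spike-in scaling, and spike-in scaling put it at 0.01.

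The inducible beta subunits, known from immune cells and from cells exposed to interferon, held the highest and the lowest difference of all members. Psmb9, the inducible counterpart of Psmb6, was at 46.1, 12.9, 7.9 and 36.5 in 8-cell embryos and at 216, 387, 230 and 262 in blastocysts. The stages were far apart (2.87, SE 0.32, 7.30-fold higher, adjusted p = 2.55e-05), although 2 of 4 8-cell arrays lay under the 40th percentile of the array, so the fold rests in part on the added 16 (3.63 with 1 added and 1.91 with 64 added, on the log2 scale). Psmb10, the inducible counterpart of Psmb7, went the other way. It gave 352, 325, 399 and 400 in 8-cell embryos and 73.0, 69.7, 85.1 and 92.1 in blastocysts, without overlap (-2.01, SE 0.13, 4.01-fold lower, adjusted p = 6.47e-07). Psmb8, the counterpart of Psmb5, and Psmb11, known from the thymus, did not pass the filter. Psmb8 stayed at 25.1 or less on all 8 arrays, and Psmb11 reached at most 72.5 in 8-cell embryos and 25.5 in blastocysts.

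The change of each replacement subunit was also set against that of its constitutive counterpart within each array, as the log2 difference of the pair. Only the change of this difference between the stages can be read, since levels of different probe sets are not comparable. The difference Psmb9 minus Psmb6 rose by 2.24, that of Psmb10 minus Psmb7 fell by 1.66, and that of Psma8 minus Psma7 rose by 1.11. Each had an exact two-sided permutation p = 0.0286, the smallest that 4 against 4 arrays can give, and the same p after adjustment over the 3 pairs tested. These changes are made of the values already given for each gene, so the p-values add no separate support. Psmb9 and Psma8 had 2 of 4 8-cell arrays above the 40th percentile and met the filter through their 4 blastocyst arrays, where they are high. The fourth pair, Psmb8 and Psmb5, is given no value, because Psmb8 was under the filter on all arrays. For the Psma8 pair, the change was 0.63 (adjusted p = 0.114) with the other probe set of Psma7, and 0.91 to 1.31 when single arrays were left out.

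**Figure D2:**
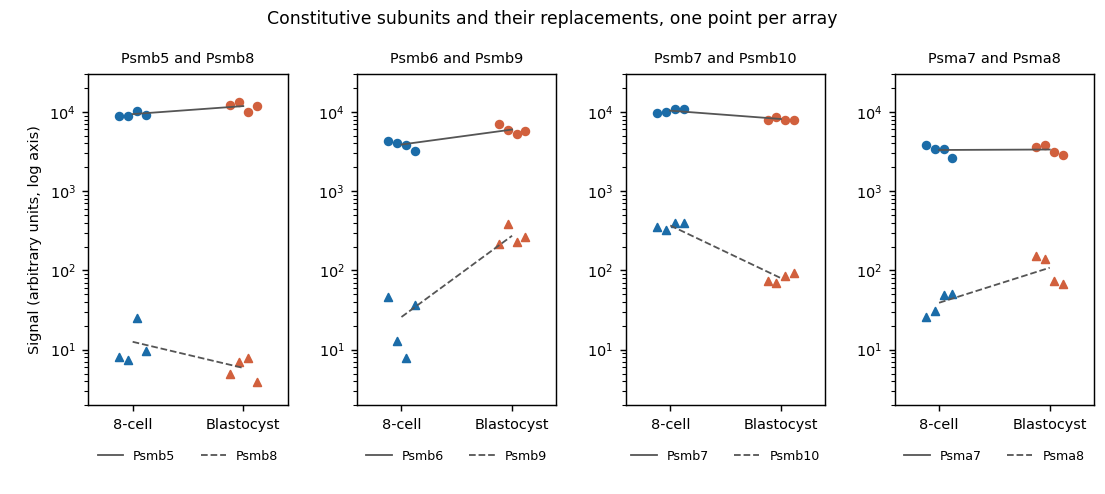
Signal on each of the 8 arrays (log axis, arbitrary units; circles for the constitutive subunit, triangles for its replacement, lines joining the stage means). Psmb9 rises and Psmb10 falls between the stages while Psmb6 and Psmb7 move by less than 2-fold; heights of different genes come from different probe sets and are not comparable.

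Psmb9 lies head to head with Tap1, which encodes a subunit of the peptide transporter for antigen presentation. In the RefSeq annotation of GRCm38.p6 both genes are on chromosome 17, with 225 bases between their starts, and both rose. Tap1 went from 72.0 ± 18.4 to 207 ± 46.7 (1.34, SE 0.20, adjusted p = 0.000198), though with the mean of its probe sets it gave 0.31 (adjusted p = 0.0516). The interval is shown because it is the whole upstream sequence that the pair shares. It is written on the plus strand, from the start of Psmb9 (read to the left) to that of Tap1 (read to the right), with a CCAAT match in capitals at chr17:34187331-34187555:
Psmb9 to Tap1: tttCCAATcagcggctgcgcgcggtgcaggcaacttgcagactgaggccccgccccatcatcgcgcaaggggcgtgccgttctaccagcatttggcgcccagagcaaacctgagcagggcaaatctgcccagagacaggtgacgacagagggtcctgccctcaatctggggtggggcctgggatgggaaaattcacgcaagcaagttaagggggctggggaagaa

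Promoters of proteasome genes are known for antioxidant response elements, which bind the factor encoded by Nfe2l1. The core TGACNNNGC was searched on both strands in the 250 bases before each start in a table of RefSeq promoters (GRCm38.p6). It was found for 5 of the 39 proteasome genes with an entry (Psmb5, Psmb6, Psmc6, Psmd9 and Psmd12), or 12.8%, against 11.5% of all genes. Among members with an entry, 3 of 13 called higher and 2 of 12 called lower (Psmc6 and Psmd12) had this core. CCAAT, bound by the factor NF-Y, was found for 14 of 39 (35.9%, against 37.5%). The interferon-stimulated element, searched as a pair of GAAA with any 2 bases between them, was found for 3 (7.69%, against 3.46%), and TTCNNNGAA, the gamma-activated site, for 2 (5.13%, against 8.13%). The shares for the first 2 motifs were near those of all genes, and those of the other motifs rest on 3 and 2 genes. The interferon-stimulated element was found for Psmb3, Psmd4 and Psmd9 and the gamma-activated site for Psmb8 and Psmg1. Neither was found in the bases searched for Psmb9 and Psmb10. The promoters of Psma8, Psmb1, Psmb2, Psmb7, Psmc3, Psmd3, Psmd7 and Psmg2 were not analysed here. The 100 bases before the starts of both catalytic subunits that were higher in blastocysts are shown, each on its gene's strand, with the match of the antioxidant core in capitals; they lie at chr14:54617996-54618095 (minus strand) and chr11:70525257-70525356 (plus strand):
Psmb5: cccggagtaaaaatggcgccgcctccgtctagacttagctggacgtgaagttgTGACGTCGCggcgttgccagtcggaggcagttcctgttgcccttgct
Psmb6: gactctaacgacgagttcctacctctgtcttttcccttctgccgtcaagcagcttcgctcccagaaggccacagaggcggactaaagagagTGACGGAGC

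In the base of the regulatory particle, the ATPases that unfold substrates were divided. Of 6 genes 3 were higher (Psmc1, Psmc3 and Psmc4), 2 were lower (Psmc2 and Psmc6) and Psmc5 did not pass. Psmc3, the highest, went from 5401, 5162, 5810 and 4593 in 8-cell embryos to 7626, 7386, 6921 and 7912 in blastocysts (0.51, SE 0.12, adjusted p = 0.00308). Psmc2, the lowest, went from 22551, 21336, 25905 and 20468 to 11821, 11668, 11396 and 12488, so that the blastocyst arrays were all well below the 8-cell arrays (-0.92, SE 0.12, 1.90-fold lower, adjusted p = 5.99e-05). Another bright probe set of Psmc2 gave 0.14 (adjusted p = 0.286). Psmc6 fell by 0.47 (SE 0.13, adjusted p = 0.00776) on its brightest probe set, and both others were called higher (0.86 and 1.15). Psmc4 rose by 0.31 (adjusted p = 0.0322), but in the fit over all probe sets the same probe set did not pass (adjusted p = 0.0506). There a second probe set of Psmc4, at 4041 and 2462 in the stages, was called lower (-0.70, adjusted p = 0.00432). The higher call was also lost without 8-cell replicate 1 or 3 or blastocyst replicate 1, 2 or 4 (adjusted p up to 0.0867).

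The other base genes encode large scaffolds and a ubiquitin receptor. Psmd2, a scaffold that docks shuttle proteins, rose from 6008, 4695, 4654 and 5492 to 9037, 10622, 9137 and 9560 (0.88, SE 0.13, adjusted p = 0.000163), with every blastocyst array above every 8-cell array. Psmd1, the other scaffold, rose by 0.31 (SE 0.11, adjusted p = 0.0243), a call that was lost without 8-cell replicate 1 or blastocyst replicate 2 (adjusted p up to 0.0731). Psmd4, which encodes the ubiquitin receptor, was lower, from 10911, 10269, 12657 and 9742 to 8120, 8821, 7666 and 7687 (-0.43, SE 0.12, adjusted p = 0.0108). It did not pass with quantile or spike-in scaling or when its probe sets were averaged, of which 1 dim one was called higher (0.74).

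The lid removes ubiquitin chains before degradation. Of its 8 genes 5 were lower (Psmd3, Psmd6, Psmd7, Psmd11 and Psmd12), 1 was higher (Psmd13) and 2 did not pass (Psmd8 and Psmd14). Of all genes tested 34.2% were called lower and 37.5% higher, and of the 3319 brightest 45.3% and 34.0%. The median of the lid genes was -0.55, and with spike-in scaling Psmd7 alone was still called lower. Psmd7, the partner of the deubiquitinating subunit, fell most, from 4492, 4920, 4768 and 5267 in 8-cell embryos to 1551, 1631, 1591 and 1559 in blastocysts. This was 3.05-fold lower without overlap (-1.61, SE 0.11, adjusted p = 7.23e-07), and its 2 dimmer probe sets gave -0.86 (adjusted p = 0.000987) and -0.77 (adjusted p = 0.0513). Psmd14, which encodes the deubiquitinating subunit itself, was at 14881 ± 680 and 14746 ± 1406 (-0.02, SE 0.11, adjusted p = 0.904).

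The other lid genes that fell encode scaffold subunits of the horseshoe that forms the lid's body. Psmd3 fell by 0.83 (SE 0.12), Psmd11 by 0.75 (SE 0.13), Psmd12 by 0.60 (SE 0.10) and Psmd6 by 0.51 (SE 0.12). The 4 other probe sets of Psmd11 that passed the filter were also called lower. Psmd13, another such subunit, was higher in blastocysts, from 2566, 2786, 2922 and 3250 to 4608, 4793, 3669 and 4181 (0.58, SE 0.13, adjusted p = 0.00303), without overlap.

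Assembly factors had 5 higher calls among 7 genes and 1 lower call (Psmg3), where 37.5% and 34.2% of all genes were called, with a median of 0.88; with spike-in scaling 5 were higher and none lower, and when all probe sets of a gene were averaged 3 were higher and none lower. Psmg1 and Psmg2 encode partners in a dimer that seeds the alpha ring. Psmg1 rose from 1704, 1706, 1757 and 1943 to 4752, 4546, 3930 and 4117 (1.28, SE 0.12, 2.42-fold higher, adjusted p = 6.06e-06). Psmg2 rose less, from 1966, 2316, 1850 and 2119 to 2808, 2532, 2748 and 3111 (0.44, SE 0.12, adjusted p = 0.00905), but neither its 2 other probe sets nor the mean of its probe sets passed. The stages did not overlap for either gene.

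Psmg3 and Psmg4 encode the partners of a second such dimer, and their transcripts went in opposite directions. Psmg4 rose from 512, 351, 426 and 379 to 2156, 2131, 1609 and 1510 (2.10, SE 0.17, 4.30-fold higher, adjusted p = 2.97e-06), or by 0.98 when its probe sets, of which the other was under the filter, were averaged. Psmg3 fell from 2455, 2048, 2426 and 1897 to 1583, 1637, 1246 and 1734 (-0.51, SE 0.15, adjusted p = 0.0113), but did not pass with spike-in scaling (-0.15) or when its probe sets were averaged (-0.11). Neither gene's stages overlapped.

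Base chaperones hold the ATPases until the base is complete. Psmd10, which encodes gankyrin, rose from 285, 142, 129 and 93.0 to 436, 558, 519 and 476 (1.63, SE 0.27, 3.09-fold higher, adjusted p = 0.000446). Psmd9 rose from 417, 462, 340 and 432 to 841, 765, 715 and 748 (0.88, SE 0.13, adjusted p = 0.000168). Both were higher on every blastocyst array, but a dimmer probe set of Psmd9 was called lower (-1.24), and the mean of its probe sets gave -0.29 (adjusted p = 0.0554). Psmd5 gave 3090, 3535, 3149 and 4014 in 8-cell embryos and 3937, 3924, 3456 and 3551 in blastocysts, with overlapping stages (0.11, SE 0.13, adjusted p = 0.438).

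The alternative caps open the core without ubiquitin or ATP, and of 3 genes 1 was lower and 2 did not pass. Psme1, a subunit of the cap that is paired with the inducible subunits in immune cells, gave 1408, 1084, 1371 and 1090 in 8-cell embryos and 1596, 1475, 1286 and 1439 in blastocysts (0.23, SE 0.14, adjusted p = 0.156). Psme4, the single-chain nuclear cap known for its role in histone degradation, gave 5390, 5569, 4907 and 5559 and then 5432, 5330, 5511 and 5554 (0.03, SE 0.10, adjusted p = 0.820). The stages overlapped for both genes. Psme4's other probe sets did not give 1 answer: a dimmer one, at 1052 and 700 in the stages, was called lower (-0.57, adjusted p = 0.00483). Another, at 3162 and 3916, gave 0.31 and did not pass in the same fit over all probe sets (adjusted p = 0.0546). In the separate fit without shared probe sets, where it stood for Psme4, it passed (adjusted p = 0.0423).

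Psme3, the nuclear cap gene, was lower on its brightest probe set. It went from 1923, 1831, 2009 and 1788 to 1485, 1390, 1161 and 1126, without overlap (-0.55, SE 0.13, adjusted p = 0.00329). A second probe set, at 371 in 8-cell embryos and 1022 in blastocysts, was called in the opposite direction (1.44), so these arrays give no single direction for Psme3. Psmf1, which encodes the inhibitor PI31, rose from 544, 627, 554 and 705 to 933, 964, 1059 and 888 (0.65, SE 0.13, adjusted p = 0.00108), without overlap. Its 3 other probe sets, all dimmer, lay between -0.15 and 0.09 and did not pass. Of the genes that only share the prefix, Psmc3ip was lower (-1.05, SE 0.12, adjusted p = 4.06e-05) and Psme3ip1 did not pass (-0.04).

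**Figure D3:**
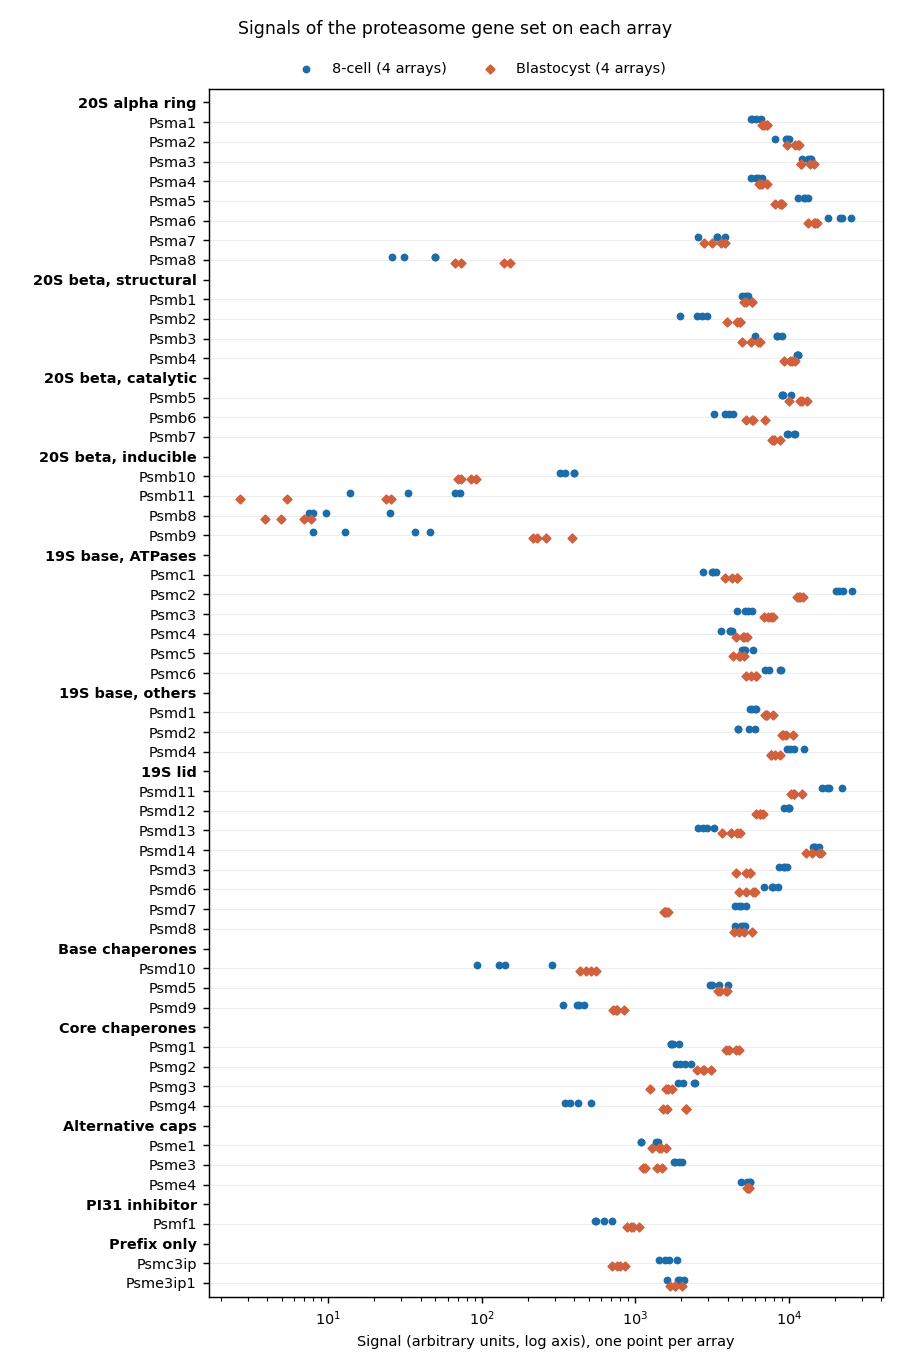
Signal of each of the 49 members on each array (log axis, arbitrary units), with 4 8-cell arrays as circles and 4 blastocyst arrays as diamonds. The stages separate clearly for Psmd7, Psmb9, Psmb10, Psmg1 and Psmg4 and lie close together for most core genes; Psmb8 stays at 25.1 or less on every array.

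Disagreement between probe sets was common enough to limit single calls. Of the 47 members tested, 23 had another probe set past the filter, and for 6 of them (Psmb3, Psmc4, Psmc6, Psmd4, Psmd9 and Psme3) such a probe set was called in the opposite direction. The array's controls read Actb and Gapdh near both the 3' and the 5' end. The 3' signal exceeded the 5' signal of Actb by 2.42 ± 0.19 (log2) at the 8-cell stage and 0.82 ± 0.11 at the blastocyst stage, and that of Gapdh by 2.32 ± 0.26 and 1.36 ± 0.11 (exact two-sided permutation p = 0.0286 each, adjusted p = 0.0571 over 4 measures). The part of this difference in the calls was not tested.

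**Figure D4:**
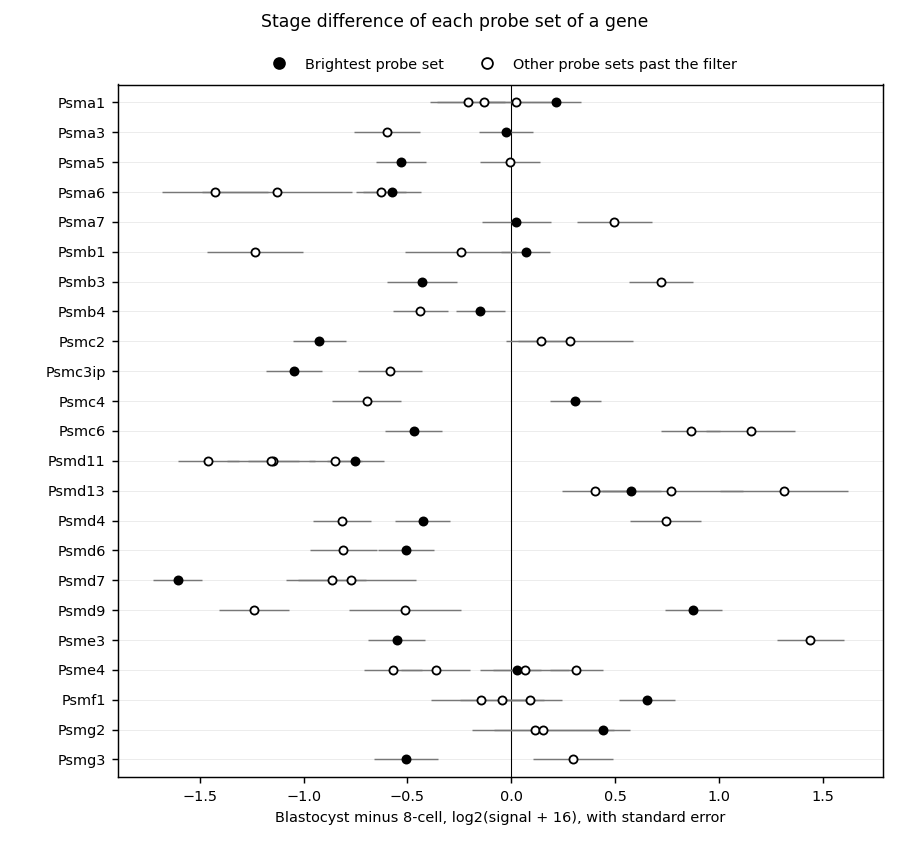
Difference between the stages with its standard error for each probe set past the filter, for the 23 members with more than 1 such probe set (filled points mark the brightest, which gave the main value). The points of Psmd11 and Psma6 all lie below 0, while those of Psme3, Psmc6 and Psmd9 lie on both sides.

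Other genes of the pathway, from lists of 52 genes, were read in the same fit. In all, 39 could be tested: 13 were higher, 11 lower, and 15 missed the threshold. These counts lie near or below the shares of all genes tested (37.5% higher and 34.2% lower), and the lists below are given as counts without a test. Among 12 partners of the proteasome 2 were higher and 6 lower. Fbxo7, a ubiquitin ligase subunit that binds PI31, rose from 155 ± 30.7 to 424 ± 96.8 (1.36, SE 0.19) and the ligase gene Ube3a by 0.79 (SE 0.13), or by 0.37 (adjusted p = 0.0612) when its probe sets were averaged. The largest falls were those of Zfand2a, a stress-induced partner of the regulatory particle, from 7643 ± 980 to 1565 ± 160 (-2.27, SE 0.13), of Ecpas, an adaptor that binds core and cap (-1.14, SE 0.15), and of Zfand5, an activator (-1.11, SE 0.11). Averaging probe sets gave -0.49 for Ecpas and -1.70 for Zfand5, both still called.

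Shuttle proteins bring tagged proteins to the proteasome, and the VCP complex extracts them from membranes and assemblies. Of 10 such genes 5 were higher and 2 lower, against 37.5% and 34.2% of all genes tested. Ngly1, which encodes the glycanase that processes the product of Nfe2l1, rose from 170 ± 50.5 to 915 ± 76.6 (2.36, SE 0.20), and the shuttle genes Ubqln1 and Ubqln2 rose by 1.18 (SE 0.12) and 1.14 (SE 0.21) on their brightest probe sets. With the mean of their probe sets these gave -0.07 and 0.12 and did not pass. Nploc4 and Ufd1, which encode partners in a VCP cofactor, fell by 0.70 (SE 0.14) and 0.63 (SE 0.14), or by 0.35 and 0.28 with spike-in scaling, where neither passed. Of 2 ubiquitin supply genes tested, Uba6, an activating enzyme, was higher (1.09, SE 0.21; -0.16 with the mean of its probe sets).

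Of 6 regulators of proteasome genes 1 was higher and 2 lower, against 37.5% and 34.2% of all genes tested. Nfe2l2, a stress factor that binds antioxidant elements, rose from 346 ± 93.3 to 2278 ± 156 (2.70, SE 0.18, adjusted p = 8.64e-07; 1.71 when its probe sets were averaged), while Nfe2l1 did not pass (-0.30, SE 0.17, adjusted p = 0.150). The NF-Y subunit genes Nfyb and Nfya fell by 1.94 (SE 0.15) and 1.14 (SE 0.22). Averaged over probe sets the values were -1.35 and -0.32, and the latter did not pass (adjusted p = 0.191).

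Antigen presentation and interferon genes were read beside the inducible subunits. Among 9 tested genes there were 4 higher and 1 lower call, where 37.5% and 34.2% of all genes tested were called higher and lower. Beside Tap1, the interferon receptor genes Ifnar2 and Ifnar1 rose, the first from 17.6 ± 16.1 to 758 ± 110 (4.62, SE 0.28) and the second by 1.12 (SE 0.14). The receptor genes Ifngr1 (-0.26, adjusted p = 0.102) and Ifngr2 (-0.22, adjusted p = 0.172) of the same list did not pass. Only 1 of 4 8-cell arrays was above the 40th percentile for Ifnar2, and its difference was 5.69 with 1 added, 3.34 with 64 added and 2.22 when its probe sets were averaged, so its size is not fixed by these arrays. Erap1, which encodes a peptide-trimming enzyme, was lower, from 93.0 ± 23.1 to 11.6 ± 8.08, with all blastocyst arrays under the 40th percentile. It fell by 2.00 (SE 0.23), and the difference was -3.08 with 1 added, -1.05 with 64 added and -1.21 when its probe sets were averaged. Irf1, a transcription factor induced by interferon, did not pass (-0.17, adjusted p = 0.502). Of 8 leukocyte markers 2 were higher, 1 was lower, 3 did not pass and 2 were not tested, and their summed signal ran from 567 to 753 in 8-cell embryos and from 920 to 1114 in blastocysts. Laptm5 rose from 106 ± 29.7 to 549 ± 132 and Lyz2 from 22.4 ± 11.8 to 46.1 ± 6.65, while Cd52 fell from 140 ± 23.7 to 29.3 ± 12.6. Cd68, Csf1r and Adgre1 were above the 40th percentile on all 8 arrays and did not pass, and Ptprc, the pan-leukocyte marker, was above it on no 8-cell array and on 1 blastocyst array. The fibroblast and cumulus cell lists had summed signals of 121 to 226 and 241 to 451 in 8-cell embryos and 224 to 264 and 232 to 312 in blastocysts. Of 3 fibroblast markers tested Thy1 (11.9 ± 7.52 to 111 ± 11.5) and Pdgfrb (11.4 ± 4.31 to 46.7 ± 2.81) were called higher, both under the 40th percentile on all 8-cell arrays. Of 3 cumulus markers tested Foxl2 was called lower (174 ± 34.8 to 121 ± 25.8). The part of such cells in the changes of Psmb9 and Psmb10 was not tested.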

How the data were processed

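The deposited values are signal intensity per probe set (45101 in all) on a linear scale. The authors' software was not given in the sources used here. Per the labels' protocols, RNA was amplified with a small-sample labelling assay. The values show that each array had a mean of 500.003 to 500.004 after removal of the outer 2%. All 8-cell values have at most 1 decimal, and 0.297% to 0.375% of the values of each blastocyst array do, so handling of the arrays and stage cannot be told apart.

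The signals became log2(signal + 16) on the deposited scale. The 64 control probe sets stayed out. The platform's annotation gave 1 symbol to 34945 probe sets, several to 932 and none to 9160; a check of gene IDs in a RefSeq table of GRCm38.p6 changed 0 symbols. The brightest probe set stood for a gene. Genes that exceeded an array's 40th percentile on 4 or more of the 8 arrays were tested with limma 3.58.1 (lmFit and eBayes, no covariates; R 4.3.3), at an adjusted p of 0.05. All probe sets of the members were also fitted among the 28229 that passed the filter. The method was tested on simulated data in which only a small share of genes changed. In these data 71.7% of the genes tested were called, so no error rate is taken from the simulation. Alternatives were other scalings, filters, added constants, probe set rules, limma options, a replicate block and leaving out each array. The number of arrays limits the precision.

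Values on each array are given for the catalytic, inducible, cap, inhibitor and assembly members, for the highest and lowest member of the other roles and for members called against most of their role. From the pathway lists the 3 highest and 3 lowest called genes were named; any further gene was named with its values known. The members and lists were chosen with earlier results of these data known. Plots were drawn with Python 3.11.15 and matplotlib 3.10.9.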

Additional observations from a re-analysis of the deposited data

Results flagged for a closer look

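Of 134 groups of 4 arrays checked (67 genes at 2 stages), 3 had an array that stood apart from the other 3, where chance alone gives about 7. Psmb5 was at 10376 in 8-cell replicate 3, and the next highest 8-cell array was at 9172. Psmb8 was at 25.1 in 8-cell replicate 3, with the next at 9.7, all under the filter. Ifnar1 was at 151 in blastocyst replicate 1, below the next lowest at 174.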

How the results depend on the processing

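Of 33 called members, 12 kept direction and call in every one of the 20 alternatives that gave them a value: Psma8, Psmb2, Psmb6, Psmb9, Psmb10, Psmc3, Psmc3ip, Psmd2, Psmd7, Psmd10, Psmg1 and Psmg4. For the other 21 the call was lost in at least 1 setting, and for 8 of them the direction turned; of 14 members not called, 9 were called in at least 1. Spike-in scaling left 4 members lower in place of 16, with 65.4% of all calls higher against 52.3%. Genes that turned were, with quantile scaling, Psma3 (0.23), Psmb4 (0.054) and Psmd14 (0.25); with median scaling, Psma3 (0.034), Psmd14 (0.042) and Psme3ip1 (0.021); with spike-in scaling, Psma3 (0.33), Psmb4 (0.21), Psmb7 (0.0087), Psmc5 (0.20), Psmd14 (0.34) and Psme3ip1 (0.32); with the mean of probe sets, Psma1 (-0.027), Psmb1 (-0.47), Psmb3 (0.15), Psmc1 (-0.042), Psmc4 (-0.19), Psmc6 (0.52), Psmd9 (-0.29), Psme3 (0.26), Uba6 (-0.16) and Ubqln1 (-0.069); without probe sets ending in _x_at, _s_at or _a_at, Psmb1 (-1.24), Psmb3 (0.72), Psmc2 (0.14) and Psmc6 (1.15). The causes were not tested. Leaving out single arrays gave ranges through 0 for Psma3 (-0.077 to 0.015), Psma7 (-0.089 to 0.103), Psmd8 (-0.044 to 0.081), Psmd14 (-0.062 to 0.039), Psme3ip1 (-0.112 to 0.012) and Psme4 (-0.013 to 0.048), none of them called; members higher ranged from 14 to 17 and lower from 15 to 16. The Psma8 and Psma7 pair gave 0.87 with the mean of probe sets, 0.63 without the shared probe sets and 0.69 with 64 added, and did not pass; without single arrays it ran from 0.91 to 1.31, with adjusted p = 0.0571 when any 1 blastocyst array was left out, where p-values have steps of 0.0286 and a missed threshold says little. With a replicate block 14 members were higher and 14 lower. Same-numbered arrays did not deviate together (correlations -0.04 to -0.02). Such values near 0 cannot show whether the numbers pair the samples.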
